A study of Mus musculus with 18 samples.

Results

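Mature miRNAs were compared between B16 cells treated with all-trans retinoic acid (ATRA) and control B16 cells, to see which miRNAs changed when this inducer of differentiation was applied. B16 is a mouse melanoma cell line. The members are every row of the deposited table of mature miRNA counts, 1978 in all, in the 3 ATRA libraries and the 3 control libraries, which are 6 of the 18 libraries of the series. The other libraries hold total RNA of the same groups and both assays of cells given sodium 4-phenylbutanoate (PB-4). No allele or further treatment is named for any group, the sources used here give neither the dose nor the duration of ATRA for these cultures, and nothing says that the libraries of a group came from separate cultures, so p-values measure the spread between these libraries only, which may be technical.

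A miRNA is cut from a hairpin transcript by Drosha and then Dicer, and either arm of the hairpin (named 5p or 3p) can be loaded into an Argonaute protein. The loaded strand pairs with messenger RNAs mainly through its seed, the bases from position 2 to position 8, and lowers the output of the paired transcripts. ATRA acts in the nucleus, where it binds retinoic acid receptors that control transcription from their target genes. In melanocytes and melanoma, miR-211, which lies in an intron of the pigment cell gene Trpm1, and the pair of miR-221 and miR-222 are among the best known miRNAs.

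The miRNAs on which the results turn are shown here with their seed in capitals, so that shared seeds and opposite-strand partners can be seen. The sequences are those of RefSeq (GRCm38.p6), which held 1679 of the 1978 names and 39 of the 41 miRNAs that passed the test.
miR-30e-5p: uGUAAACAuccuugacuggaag
miR-30c-5p: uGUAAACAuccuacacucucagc
miR-30a-5p: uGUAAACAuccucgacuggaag
miR-30e-3p: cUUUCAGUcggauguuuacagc
miR-30f: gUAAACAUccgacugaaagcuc
miR-221-3p: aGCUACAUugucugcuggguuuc
miR-222-3p: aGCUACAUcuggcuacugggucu
miR-9-5p: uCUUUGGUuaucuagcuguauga
miR-9b-3p: aUACAGCUagauaaccaaaga
miR-22-5p: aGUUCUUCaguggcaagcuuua
miR-31-5p: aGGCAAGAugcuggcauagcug
miR-200a-3p: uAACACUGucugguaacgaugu
miR-200b-3p: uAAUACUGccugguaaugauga
miR-503-5p: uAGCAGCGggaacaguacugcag
miR-322-5p: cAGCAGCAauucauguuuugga
miR-7a-5p: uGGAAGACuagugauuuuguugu
miR-7b-5p: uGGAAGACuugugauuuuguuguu
miR-210-5p: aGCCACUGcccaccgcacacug
miR-344d-3-5p: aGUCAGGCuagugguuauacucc
miR-344d-3p: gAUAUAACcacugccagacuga
miR-30e-5p, miR-30c-5p and miR-30a-5p share the seed GUAAACA, miR-221-3p and miR-222-3p share GCUACAU, and miR-7a-5p and miR-7b-5p share GGAAGAC. miR-30f is the reverse complement of miR-30e-3p over 19 bases, and miR-9b-3p of miR-9-5p over 21 bases.

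Depth was 3838621 to 5873682 miRNA counts in the control libraries and 4409869 to 6856229 in the ATRA libraries. Between 1261 and 1666 of the 1978 mature miRNAs had at least 1 count in a library. The 10 most abundant held 51.0 to 54.3% of the counts, led by let-7i-5p with 9.57 to 12.7%. Total RNA of these groups held melanocyte transcripts. Tyrp1 was at 5817 to 6321 CPM in control and 2010 to 3812 CPM with ATRA (counts per 1e6, with library sizes scaled by the trimmed mean of M-values). Pmel, a structural protein of the melanosome, was at 1427 to 2567 and 993 to 2339 CPM. Tyr, the gene of tyrosinase, was at only 4.79 to 16.1 and 0.503 to 4.95 CPM. Their log2 fold changes were -1.02 ± 0.27, -0.33 ± 0.38 and -2.12 ± 0.83, and none passed the edgeR test. Mlana (-1.05 ± 0.32), Mitf (-0.96 ± 0.26), Dct (-0.28 ± 0.31) and Sox10 (0.25 ± 0.34) did not pass either. Mlana was at 235 to 516 CPM in control and 137 to 204 CPM with ATRA, and Mitf at 296 to 486 and 160 to 256 CPM. The groups did not overlap for Tyrp1, Mlana and Mitf, and overlapped for Tyr, Pmel, Dct and Sox10. Values with the replicate number as a block are not given for these genes. Markers of other cell types that were near 0 in the miRNA libraries were miR-223-3p, miR-142a-3p and miR-142a-5p of immune cells, miR-205-5p and miR-141-3p of epithelia, miR-124-3p of neurons and miR-133a-3p of muscle, all with a mean under 1 CPM. Other members of such lists were well above 0 and did not pass the test, with means of 501 CPM for miR-155-5p, listed for immune cells, 1733 CPM for the endothelial miR-126a-3p, 737 CPM for miR-199a-3p of fibroblasts and 17.5 CPM for miR-206-3p of muscle. The sum over the immune list was 345 to 471 CPM in control and 481 to 710 CPM with ATRA, nearly all of it miR-155-5p, and what other cells contributed was not tested.

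With ATRA 25 mature miRNAs rose (2.06%) and 16 fell (1.32%) out of 1213 tested (3.38% called, edgeR quasi-likelihood test, Benjamini-Hochberg adjusted p under 0.05, n = 3 per group). The remaining 765 had fewer than 10 counts over the 6 libraries and were not tested, 46 of them without any count. Of those called, 15 rose and 8 fell by at least 2-fold (1.90% of the tested), and 149 of the 1213 had an unadjusted p under 0.05. The libraries of the groups did not overlap for any of the 41 called miRNAs, and did not overlap for 240 of the 1213 tested (19.8%). When only library totals were used for scaling, 26 rose and 43 fell, and the median log2 fold change of all tested miRNAs moved from -0.03 to -0.16. All 41 kept their direction in every alternative. In 19 of them the call held whichever single library was left out, 15 higher and 4 lower with ATRA. The others are marked below where they are described.

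**Figure D1:**
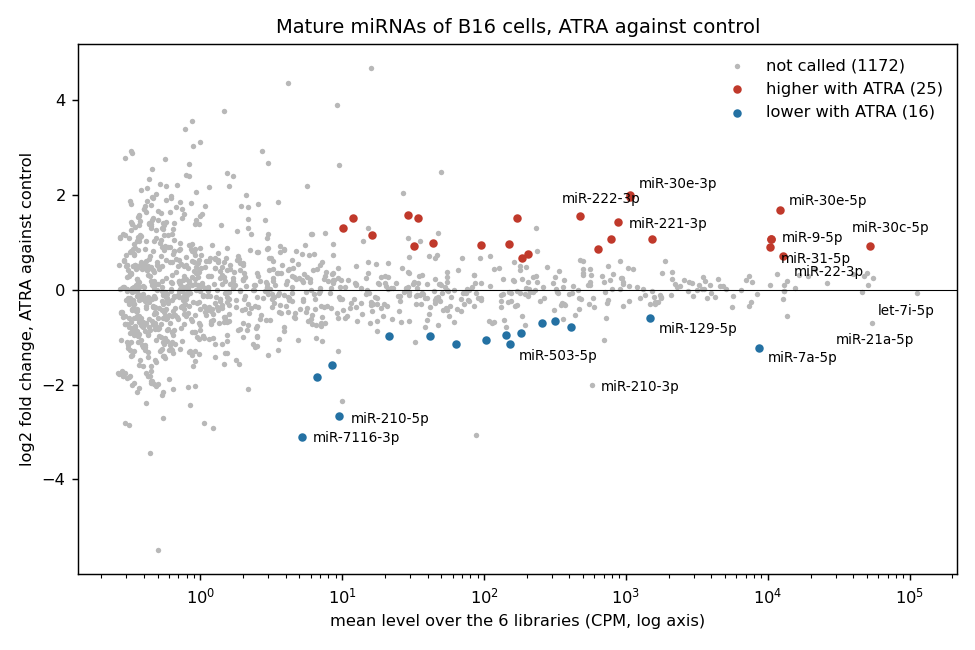
Mean level over the 6 libraries (CPM, log axis) against the log2 fold change of ATRA against control, 1 point per tested mature miRNA. The 25 called higher (red) and 16 called lower (blue) include abundant miRNAs such as miR-30c-5p and miR-7a-5p, while let-7i-5p, the most abundant, lies near 0.

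The miRNAs of a single intron of Nfyc, the gene of a subunit of the NF-Y transcription factor, showed the clearest change. miR-30e-5p, the main strand of its hairpin (chr4:120772660-120772681, minus strand), was at 5042, 4882 and 7440 CPM in the control libraries and at 21104, 17735 and 16604 CPM with ATRA. Every ATRA library was above every control library, and the rise was 3.19-fold (log2 fold change 1.67 ± 0.19 SE, adjusted p = 8.3e-04). Its other strand, miR-30e-3p (chr4:120772618-120772639), was at 469, 409 and 398 CPM without and 1907, 1601 and 1572 CPM with ATRA. That is 3.98-fold (1.99 ± 0.15, adjusted p = 2.2e-05), the smallest adjusted p of the comparison together with that of miR-30f. miR-30c-1-3p, from the neighbouring hairpin at chr4:120769546-120769567, rose from 89.7 ± 12.6 to 254 ± 55.2 CPM (SD, n = 3), a log2 fold change of 1.50 ± 0.19 (adjusted p = 0.0014).

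The miR-30 family, known among other roles for repressing the mesenchymal factor Snai1, has members at other loci, and these did not pass the test. miR-30c-5p is made from both the Nfyc hairpin and a second one on chromosome 1 (chr1:23291714-23291736), and it rose from 33149, 33861 and 42381 CPM to 82278, 62790 and 60848 CPM (0.91 ± 0.17, adjusted p = 0.013, but 0.065 without control replicate 2). The 3p strand that only the chromosome 1 hairpin makes, miR-30c-2-3p, was at 629 ± 55.5 and 552 ± 113 CPM, with a log2 fold change of -0.19 ± 0.17. miR-30a-5p, also on chromosome 1, was at 46828 ± 6891 and 44999 ± 8058 CPM (-0.06 ± 0.17), and miR-30d-5p at 43068 ± 4947 and 52601 ± 8587 CPM (0.29 ± 0.16). In all, 5 of the 12 tested members of the family rose and none fell, and the 5 are those that carry a product of the Nfyc locus or its opposite strand. The median log2 fold change was 0.26 over the family, against -0.03 over all tested miRNAs.

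**Figure D2:**
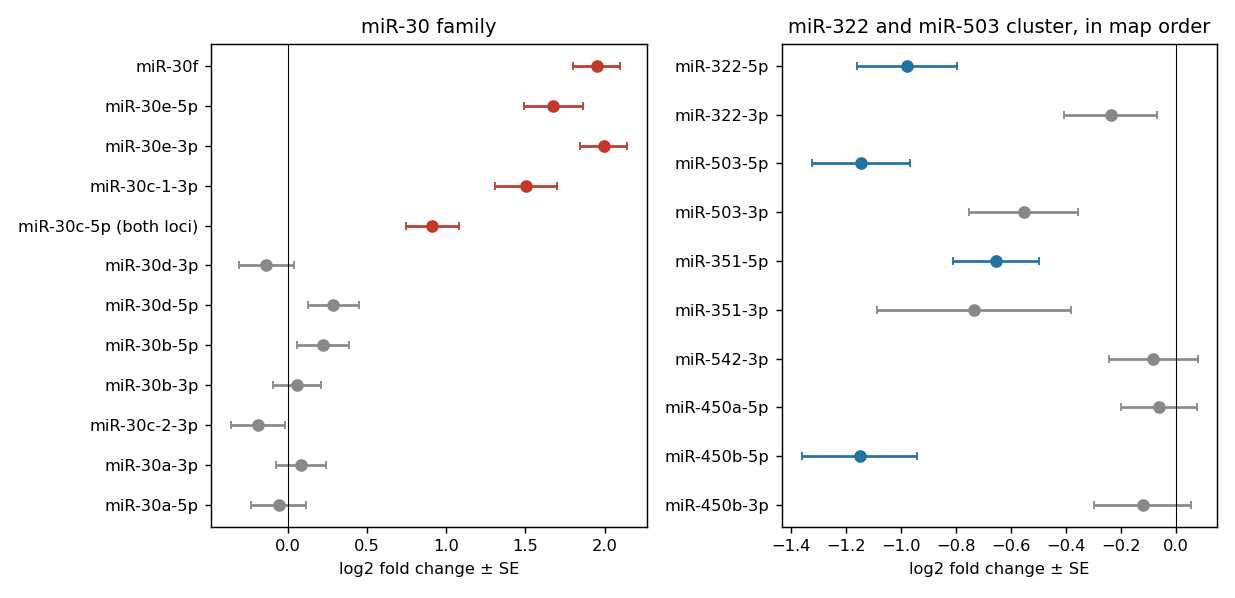
Log2 fold change ± SE of the miR-30 family (left) and of the cluster of miR-322 and miR-503 on the X chromosome with a mean of at least 5 CPM (right, in map order); red is called higher, blue called lower and grey not called. The strands made by the Nfyc locus alone lie between 1.50 and 1.99, and those of other miR-30 loci near 0; in the cluster the called 5p strands lie between -1.15 and -0.65.

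A caution on counting applies to miR-30f, which is annotated on the opposite strand of miR-30e-3p. Its counts in the 6 libraries were 0.989 to 1.07 times those of miR-30e-3p, and miR-9-5p and its opposite-strand partner miR-9b-3p differed as little, with ratios of 0.989 to 1.01. Of 36 pairs of mature miRNAs that overlap on opposite strands, 8 had at least 400 counts in both members, and in 6 of these the ratio lay within 0.785 to 1.14 in every library. One of the remaining pairs was miR-129b-3p and miR-129-5p, with a ratio of 0.480 to 0.507, where miR-129-5p is annotated at 2 loci and its partner at 1. In the other, miR-9-3p had 22.1 to 87.3 times the counts of miR-9b-5p. The limit of 400 counts leaves out pairs with a scarce member, so it favours near-equal ratios. Among pairs left out, miR-126a-3p had 57940 counts over the 6 libraries and its partner miR-126b-5p 163. For miR-219c-5p and miR-219a-1-3p they were 62 and 1776. Near-equal counts were therefore not general to such pairs. The sources used here do not say whether the counting used strand. For partners with near-equal counts it is therefore not known whether their reads were told apart. miR-30f and miR-9b-3p are not evidence apart from miR-30e-3p and miR-9-5p. With the counts of such pairs summed, an alternative chosen after the data were seen, 21 features rose and 8 fell.

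**Figure D3:**
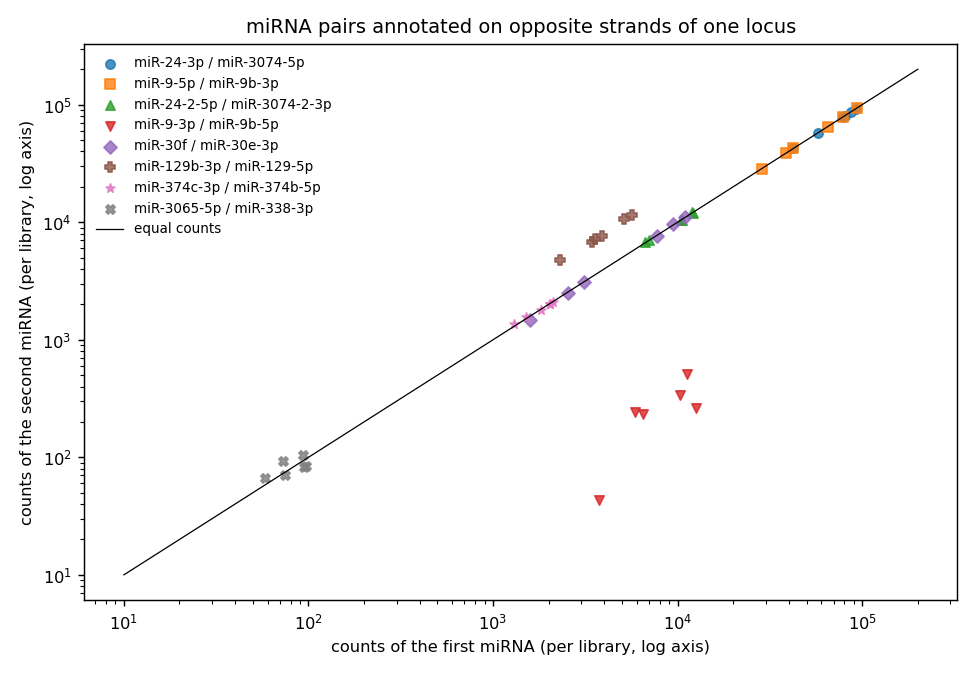
Counts per library of both members of the 8 opposite-strand pairs with at least 400 counts in each (log axes, 6 points per pair, line at equal counts). 6 pairs lie along the line, miR-129b-3p and miR-129-5p lie above it, and miR-9-3p and miR-9b-5p well below it.

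miR-221 and miR-222, which repress the cell cycle inhibitor Cdkn1b and the receptor Kit and lie side by side on the X chromosome, rose together. miR-221-3p (chrX:19146307-19146329) was at 383, 484 and 561 CPM in the control libraries and at 1329, 1123 and 1362 CPM with ATRA. The groups lay well apart, 2.67-fold (1.42 ± 0.17, adjusted p = 0.0011). miR-222-3p (chrX:19146901-19146923) was at 189, 249 and 283 CPM and at 760, 575 and 770 CPM, 2.92-fold higher (1.55 ± 0.19, adjusted p = 0.0011). Of their minor strands, miR-221-5p was at 11.1, 17.8 and 25.01 CPM and at 62.7, 45.2 and 44.6 CPM (1.50 ± 0.29, adjusted p = 0.015, but 0.115 at most without control replicate 2 or ATRA replicate 1). miR-222-5p, at 3.69 ± 0.319 and 8.34 ± 0.968 CPM, did not pass (1.17 ± 0.29, adjusted p = 0.056), but did with DESeq2 (0.042), which called all 4 strands. The 4 tested members had a median log2 fold change of 1.46. The 3p strands alone carry the seed GCUACAU, and its sum, which also takes in miR-1928, gave 1.42 ± 0.17 (adjusted p = 0.0019).

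miR-9, best known from neural progenitors, rose in both of its strands. miR-9-5p was at 6474, 6251 and 7661 CPM without and at 16311, 13537 and 12933 CPM with ATRA, 2.10-fold higher (1.07 ± 0.15, adjusted p = 0.0021). miR-9-3p was at 985, 953 and 1009 CPM and at 2174, 2144 and 1850 CPM (1.07 ± 0.13, adjusted p = 0.0014). Control libraries lay close together in both strands. Its mature sequence is made from 3 hairpins, on chromosomes 3, 7 and 13, which these counts cannot separate. Of the other neuronal markers, miR-128-3p (0.26 ± 0.14) and miR-138-5p did not pass the test and miR-124-3p was not tested.

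miR-22 rose in both strands, and miR-31-5p rose as well. miR-22-5p (chr11:75463734-75463755), the minor strand of a widely expressed hairpin, rose from 511 ± 55.8 to 1067 ± 97.4 CPM (1.06 ± 0.15, adjusted p = 0.0021). The main strand, miR-22-3p, was at 8889, 10484 and 9910 CPM and at 16228, 17304 and 14096 CPM (0.70 ± 0.14, adjusted p = 0.019). This call was lost without control replicate 1, control replicate 2 or ATRA replicate 2 (adjusted p 0.067 at most). miR-31-5p (chr4:88910614-88910635), studied in human breast cancer as a suppressor of metastasis, was at 6686, 7575 and 7464 CPM and at 13939, 11541 and 15059 CPM (0.90 ± 0.14, adjusted p = 0.0057). No ATRA library of these 3 strands was as low as a control library.

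Other rises under 2-fold that held without any single library were found for miR-339-3p (0.93 ± 0.16), miR-92b-3p (0.97 ± 0.17), miR-1249-3p (0.95 ± 0.17) and miR-671-3p (0.75 ± 0.14). miR-92b-3p was at 27.3, 30.01 and 31.2 CPM without and at 56.6, 56.2 and 60.9 CPM with ATRA. It carries the seed of the miR-17-92 member miR-92a-3p, which was at 12625 ± 958 and 13485 ± 1781 CPM and did not pass (0.10 ± 0.14). miR-339-5p (0.85 ± 0.18), miR-615-3p (0.92 ± 0.19) and miR-582-3p (0.65 ± 0.15) rose too. Their calls were each lost in 4 of the 6 fits with a library left out, among them those without control replicate 1 (adjusted p 0.141 at most).

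The miR-200 family restrains the mesenchymal factors Zeb1 and Zeb2 in epithelial cells. It was scarce in these cells, and 2 of its strands from chromosome 4 rose. miR-200a-3p was at 5.95, 5.03 and 7.53 CPM in control and at 21.7, 19.2 and 11.8 CPM with ATRA (1.51 ± 0.30, adjusted p = 0.018). miR-200b-3p was at 5.34, 5.19 and 6.99 CPM and at 13.4, 16.7 and 12.96 CPM (1.30 ± 0.26, adjusted p = 0.021). The third miRNA of the chromosome 4 locus, miR-429-3p, was at 1.46 ± 0.458 and 2.28 ± 0.850 CPM with overlapping groups and did not pass (0.65 ± 0.53), nor did the scarce miR-200a-5p (1.69 ± 0.88). The miRNAs of the locus on chromosome 6 did not pass either, with miR-200c-3p at 10.2 ± 2.06 and 10.6 ± 1.80 CPM (0.06 ± 0.27). Both calls rest on few counts, and adjusted p reached 0.115 and 0.135 with a library left out (control replicate 1, control replicate 2, ATRA replicate 1 or ATRA replicate 2, and for miR-200b-3p also ATRA replicate 3). Over 7 epithelial and keratinocyte markers, 2 of which rose, the summed level was 35.6 to 40.9 CPM in control and 48.6 to 60.05 CPM with ATRA, with miR-205-5p and miR-141-3p under 1 CPM. The part of other cells in this was not tested.

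miR-451a, a miRNA of red blood cells that Argonaute 2 cuts without Dicer, rose from 10.1 ± 2.92 to 22.4 ± 2.79 CPM (1.16 ± 0.26, adjusted p = 0.035). The call held only without control replicate 3, and adjusted p reached 0.204 without another library. The erythroid and serum markers summed to 18.3 to 21.8 CPM in control and 28.8 to 41.7 CPM with ATRA, 1 of the 6 rose, and miR-144-3p and miR-144-5p, which lie beside miR-451a, were under 1 CPM. What erythroid or serum RNA contributed was not tested.

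**Figure D4:**
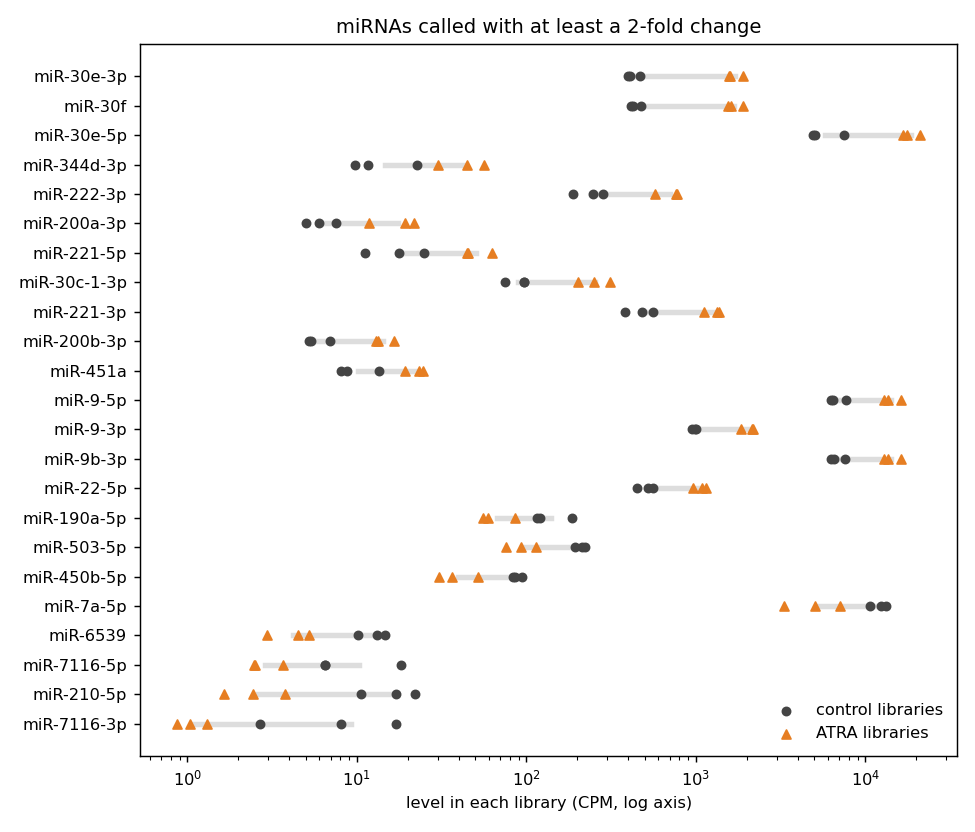
Level in each library (CPM, log axis) of the 23 miRNAs called with at least a 2-fold change, ordered by log2 fold change; grey bars join the group means. Control libraries (circles) and ATRA libraries (triangles) do not overlap in any of them, and the highest level is the 21104 CPM of miR-30e-5p.

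Among the miRNAs that fell, 4 came from the cluster of miR-322 and miR-503 on the X chromosome, whose members repress cell cycle genes such as cyclins and are known from muscle differentiation. miR-503-5p (chrX:53054027-53054049) was at 212, 221.7 and 193 CPM in control and at 115, 75.6 and 93.2 CPM with ATRA. It fell 2.21-fold (log2 fold change -1.15 ± 0.18, adjusted p = 0.0048). miR-450b-5p (chrX:53048044-53048065) was at 94.8, 82.9 and 86.0 CPM and at 51.9, 30.4 and 36.4 CPM (-1.15 ± 0.21, adjusted p = 0.013), and miR-322-5p, the rodent counterpart of human miR-424, at 55.2, 52.7 and 57.3 CPM and at 32.3, 25.0 and 26.6 CPM (-0.98 ± 0.18, adjusted p = 0.014). All 3 kept the call without any single library. miR-351-5p fell from 385 ± 14.0 to 245 ± 39.6 CPM (-0.65 ± 0.16, adjusted p = 0.048), a call lost without control replicate 1 or 2 or ATRA replicate 2 or 3 (adjusted p 0.120 at most).

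The fall did not run through the whole cluster. Of 13 tested strands 9 did not pass, and the median log2 fold change was -0.24. miR-450a-5p was at 225 ± 10.4 and 216 ± 13.9 CPM (-0.06 ± 0.14), and miR-542-3p, between miR-450a and miR-351, gave -0.08 ± 0.16. On the hairpin of miR-322 the more abundant 3p strand was at 294, 287 and 223 CPM and at 235, 191 and 257 CPM, with overlapping groups (-0.24 ± 0.17, adjusted p = 0.66). The log2 ratio of 5p to 3p was -2.40, -2.43 and -1.95 in control and -2.84, -2.91 and -3.25 with ATRA, so the groups did not overlap. These hairpins are shown because the 5p strand was called, so the ratio is a description and was not tested. The same was found for the hairpins of miR-503 and miR-450b, whose 3p strands gave -0.55 ± 0.20 and -0.12 ± 0.18, but not for that of miR-351, where the ratios overlapped and the scarce miR-351-3p gave -0.73 ± 0.35. Such a separation was not particular to this cluster. The ratios did not overlap either for the hairpins of miR-7a-1, miR-362, miR-671, miR-582, miR-31 and miR-22, and they overlapped for those of miR-221, miR-339 and miR-9. Over the hairpins of all called miRNAs, 27 pairs of strands were tested in both members, 25 pairs had the same sign and in 7 both were called. These pairs include miR-9b-5p with miR-9b-3p, which is not apart from miR-9-5p. How often strands of other hairpins share a sign was not tested.

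miR-7a-5p was the most abundant miRNA that fell. This brain and endocrine miRNA, which represses the receptor Egfr, was at 10696, 12301 and 13306 CPM in control and at 7118, 3309 and 5076 CPM with ATRA. It fell 2.34-fold (-1.23 ± 0.26, adjusted p = 0.045), and every ATRA library was below every control library, but the ATRA libraries differed among themselves. Without control replicate 1, 2 or 3 or ATRA replicate 3 the call was lost (adjusted p 0.176 at most). miR-7b-5p, with the same seed, was at 28.8 ± 3.58 and 14.5 ± 5.99 CPM (-0.98 ± 0.29, adjusted p = 0.12), and the sum over the seed GGAAGAC gave -1.15 ± 0.25 (adjusted p = 0.057). The minor strand miR-7a-1-3p, from the hairpin in Hnrnpk on chromosome 13, was at 56.6 ± 4.42 and 55.5 ± 10.8 CPM (-0.03 ± 0.19). miR-7a-2-3p, of the hairpin on chromosome 7, had a mean of 0.168 CPM and was not tested.

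miR-210, a miRNA induced by hypoxia, was low with ATRA in both strands. The minor strand miR-210-5p (chr7:141221445-141221466) was at 22.1, 10.5 and 16.9 CPM and at 2.43, 3.75 and 1.64 CPM, the last from 10 to 18 counts per library. It fell 6.35-fold (-2.67 ± 0.38, adjusted p = 0.0027) and kept the call without any single library. miR-210-3p was at 990, 527 and 1246 CPM and at 271, 263 and 147 CPM. These groups did not overlap either, but the control libraries were uneven and the change did not pass (-2.02 ± 0.40, adjusted p = 0.071). It did pass without control replicate 2 (0.017), with the filter of filterByExpr (0.033), in the fit of all 9 miRNA libraries (0.013) and with DESeq2 (1.1e-08), and the adjusted p was highest with the replicate block (0.43).

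Other falls of at least 2-fold were those of miR-190a-5p, miR-6539, miR-7116-3p and miR-7116-5p. miR-190a-5p was at 121, 116 and 185 CPM and at 86.3, 55.4 and 59.2 CPM (-1.07 ± 0.23, adjusted p = 0.032), a call lost without control replicate 1 or ATRA replicate 2 or 3 (adjusted p 0.121 at most). miR-190b-5p, which shares its seed, was at 27.8 ± 2.79 and 26.9 ± 2.22 CPM (-0.04 ± 0.19). Both strands of miR-7116 had 5 to 21 counts in each ATRA library, and control replicate 1 stood above the other control libraries with 17.1 CPM of miR-7116-3p against 8.11 and 2.69 CPM. Their log2 fold changes were -3.10 ± 0.63 and -1.85 ± 0.44, and neither was called in more than 1 of the 6 fits with a library left out (adjusted p 0.133 and 0.231 at most). miR-6539 fell from 12.6 ± 2.23 to 4.22 ± 1.16 CPM (-1.58 ± 0.31, adjusted p = 0.017, and 0.0995 at most with a library left out).

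Falls under 2-fold were found for 8 miRNAs, miR-322-5p and miR-351-5p among them. The most abundant was miR-129-5p, at 1638, 1875 and 1820 CPM and at 1253, 993 and 1262 CPM (-0.60 ± 0.15, adjusted p = 0.0496). It lay just inside the threshold with miR-344d-3p (adjusted p = 0.0497), and just outside it lay miR-129-1-3p (-0.67 ± 0.16, adjusted p = 0.0507) and miR-574-3p (0.67 ± 0.17, adjusted p = 0.0519). miR-301a-5p (-0.71 ± 0.15), miR-3081-3p (-0.78 ± 0.18), miR-1954 (-0.99 ± 0.23), miR-199b-5p (-0.96 ± 0.23) and miR-362-5p (-0.92 ± 0.22) were called as well. None of these 6 kept the call whichever library was left out, and miR-199b-5p and miR-362-5p lost it in every one of those fits (adjusted p 0.165 and 0.170 at most).

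The study of these cells centred on miR-344d-3-5p. It reported an increase with ATRA also among follow-up experiments, which these counts do not hold. In the libraries used here miR-344d-3-5p was close to the limit of detection. It had 7, 16 and 3 counts in the control libraries and 20, 29 and 43 counts with ATRA, which is 1.07, 2.60 and 0.807 CPM and 3.47, 6.04 and 7.05 CPM. The groups did not overlap, and the change did not pass the test over all miRNAs (1.84 ± 0.49, adjusted p = 0.076, and 0.067 to 0.318 with a library left out). It did pass with DESeq2 (0.036), with voom quality weights (0.033), in the fit of all 9 miRNA libraries (0.0090) and with no filter on low counts (0.0016). The strand it shares its hairpin with, miR-344d-3p, is also made from a pair of neighbouring hairpins on chromosome 7 and was more abundant. It rose from 9.77, 22.7 and 11.6 CPM to 30.02, 44.8 and 56.4 CPM (1.57 ± 0.36, adjusted p = 0.0497). This call was lost without control replicate 1 or 3 or ATRA replicate 2 or 3 (adjusted p 0.247 at most), and with library totals (0.125), RLE size factors (0.060), filterByExpr (0.072) or all 9 libraries (0.051). Of the 9 tested members of the miR-344 family 1 rose, and 10 members were not tested. Among the 9, 3 had an unadjusted p under 0.05 and DESeq2 called 2. Their log2 fold changes were above 0 in 7, with a median of 1.16, against -0.03 over all tested miRNAs.

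The most abundant miRNAs other than miR-30c-5p did not pass the test. let-7i-5p, of a family that restrains growth, was at 116609 ± 14298 CPM in control and 110219 ± 23010 CPM with ATRA (-0.08 ± 0.17). None of the 23 let-7 family strands was called by edgeR, 3 had an unadjusted p under 0.05 and DESeq2 called 1. miR-21a-5p, a growth-promoting miRNA, was at 52252, 77753 and 70099 CPM and at 43305, 33563 and 46394 CPM. Its groups did not overlap, but the change did not pass (-0.70 ± 0.18, adjusted p = 0.067). It did pass with library totals alone (adjusted p = 0.0032), without control replicate 1 (0.029), with no filter on low counts and with DESeq2.

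Several families whose mRNA targets include cell cycle genes gave no calls with edgeR. Among the miR-17-92 cluster and its paralogs, which promote proliferation, 0 of 24 tested strands were called, with 5 at an unadjusted p under 0.05, 2 called by DESeq2 and a median log2 fold change of -0.18. For the family of miR-15 and miR-16, which represses cyclins, 0 of 13 were called (5 at an unadjusted p under 0.05, 2 by DESeq2, median -0.37). miR-322-5p, which fell, carries the seed AGCAGCA that miR-15b-5p and miR-16-5p also have. The pool of 10 miRNAs with that seed was at 5323 ± 471 and 4904 ± 579 CPM in the seed sums (-0.12 ± 0.13, adjusted p = 0.81). For the family of miR-34, whose genes are targets of p53, and miR-449, 0 of 8 were called (5 at an unadjusted p under 0.05, 3 by DESeq2), although the sum over the seed AUCACUA of miR-34b-3p and miR-34c-3p rose (0.78 ± 0.17, adjusted p = 0.041). miR-211-5p, the melanocyte miRNA, was at 198, 195 and 126 CPM and at 354, 202 and 348 CPM. Its lowest ATRA library lay barely above the highest control library, and it did not pass (0.80 ± 0.25, adjusted p = 0.17). The most abundant of the 5 melanocyte markers, miR-146a-5p, leaned the other way, from 16238 ± 2811 to 11022 ± 2268 CPM (-0.56 ± 0.18, adjusted p = 0.18), while the remaining markers leaned higher. None of the 5 passed, and their sum was 28566 to 40052 CPM in control and 27425 to 36045 CPM with ATRA.

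Of the other lists, those led by miR-23 (with miR-27 and miR-24), miR-26, miR-29, miR-99 (with miR-100 and miR-125), miR-10 (with miR-196), miR-181, miR-143 (with miR-145), miR-183, miR-379 and miR-466 had 0 calls by edgeR among 5 to 26 tested strands each. At an unadjusted p under 0.05 they had 0 to 2 strands each, and DESeq2 called 1 in the list of miR-10 and 1 in that of miR-143. Their median log2 fold changes ran from -0.24 in the rodent miR-466 cluster to 0.65 in the imprinted miR-379 cluster, of which 50 of 76 members were too scarce to be tested. In the miR-362 cluster of the Clcn5 gene 1 of 10 fell, with a median of -0.45. In the list of miR-199 and miR-214, known from fibroblasts, 1 of 6 fell (miR-199b-5p), but 3 strands lay above 0 and 3 below, with a median of 0.73. Among them miR-199a-5p was at 10.6 ± 1.19 and 43.3 ± 31.7 CPM, with overlapping groups, and did not pass. None of the 3 tested strands of miR-204 and miR-211 was called by edgeR, with 1 at an unadjusted p under 0.05 and 1 called by DESeq2.

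Summing counts over miRNAs that share a seed asks whether the pool that can pair with the same sites changed. Of 909 seeds 23 rose and 5 fell (3.08% called), against 18 that rose and 27 that fell with library totals alone, and 8 of the 28 called seeds had more than 1 mature miRNA. The seed fit has its own scaling and number of tests, and seeds of a single miRNA moved as well. miR-9-3p went from 1.07 to 1.15 and miR-503-5p from -1.15 to -1.07. A seed can therefore be called when its member was not, without any pooling. The GUAAACA pool took in miR-30a-5p, miR-30c-5p, miR-30e-5p and miR-384-5p but not the abundant miR-30d-5p (mean of 47834 CPM), which had no sequence in the table used. It was at 94597 ± 14226 CPM in control and 148517 ± 17137 CPM with ATRA on the scale of the seed sums (0.65 ± 0.14, adjusted p = 0.041). The UUUCAGU pool of miR-30a-3p and miR-30e-3p rose by 0.58 ± 0.13 on the log2 scale (adjusted p = 0.041), less than miR-30e-3p alone. Seeds that passed although no member did were AUCACUA, given above, ACGCUCA, carried by miR-574-3p alone (0.76 ± 0.15, adjusted p = 0.025), AGGUAGU of miR-196a-5p and miR-196b-5p (0.68 ± 0.14, adjusted p = 0.037) and UGACCUA of miR-192-5p and miR-215-5p (0.69 ± 0.13, adjusted p = 0.025). The let-7 pool GAGGUAG was at 0.25 ± 0.13 (adjusted p = 0.50).

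By sequence, the miRNAs that rose had a median GC content of 45.5% (n = 25) and those that fell 41.3% (n = 14 with a sequence), against 47.6% over the 329 tested miRNAs with a sequence and a mean of at least 10 CPM and 52.2% over all 1053 tested with a sequence. The first base was U in 44.0% of those that rose, 57.1% of those that fell, 38.3% of the 329 and 41.8% of the 1053.

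Host transcripts were read from total RNA of the same groups, where 1.07% of 17911 genes were called. In total RNA same-numbered libraries deviated together, although control replicate 1 correlated with ATRA replicate 2 (0.607) more than with ATRA replicate 1 (0.502), and with the replicate number as a block 18.4% of the genes were called, so the blocked value is given as well. Nfyc, the host of miR-30e and miR-30c-1, was at 33.0, 33.0 and 32.9 CPM in control and at 55.2, 54.6 and 77.1 CPM with ATRA. The groups did not overlap, and the adjusted p was 0.075 (0.92 ± 0.20) and 0.0054 with the block. Tln2, a talin gene that holds miR-190a, fell from 266, 275 and 306 CPM to 150, 133 and 146 CPM (-0.98 ± 0.17, adjusted p = 0.047, and 0.0017 with the block). Its log2 fold change lay near that of miR-190a-5p (-1.07 ± 0.23).

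Smc4, a condensin subunit gene with miR-15b and miR-16-2 in an intron, fell from 224, 243 and 146 CPM to 59.8, 72.8 and 83.1 CPM (-1.51 ± 0.25, adjusted p = 0.040). The miRNAs it holds did not pass, miR-15b-5p at 670 ± 25.1 and 518 ± 49.6 CPM (-0.37 ± 0.14) and miR-15b-3p at -0.43 ± 0.15. Hnrnpk, which holds miR-7a-1, was not called (-0.40 ± 0.18, adjusted p = 0.33) but was with the block (0.038), as was Clcn5 (-0.61 ± 0.24, adjusted p = 0.27 and 0.0098). Trpm1, which holds miR-211, was at 2.87, 4.21 and 4.11 CPM and at 6.38, 5.96 and 9.32 CPM (0.95 ± 0.34, adjusted p = 0.23, and 0.036 with the block). In all, 2 of the 24 tested listed hosts fell and none rose, and with the block 3 rose and 6 fell. Neither Tln2 nor Smc4 kept its call without control replicate 1 or 2 or ATRA replicate 1 or 2, and 0 listed genes were then called.

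**Figure D5:**
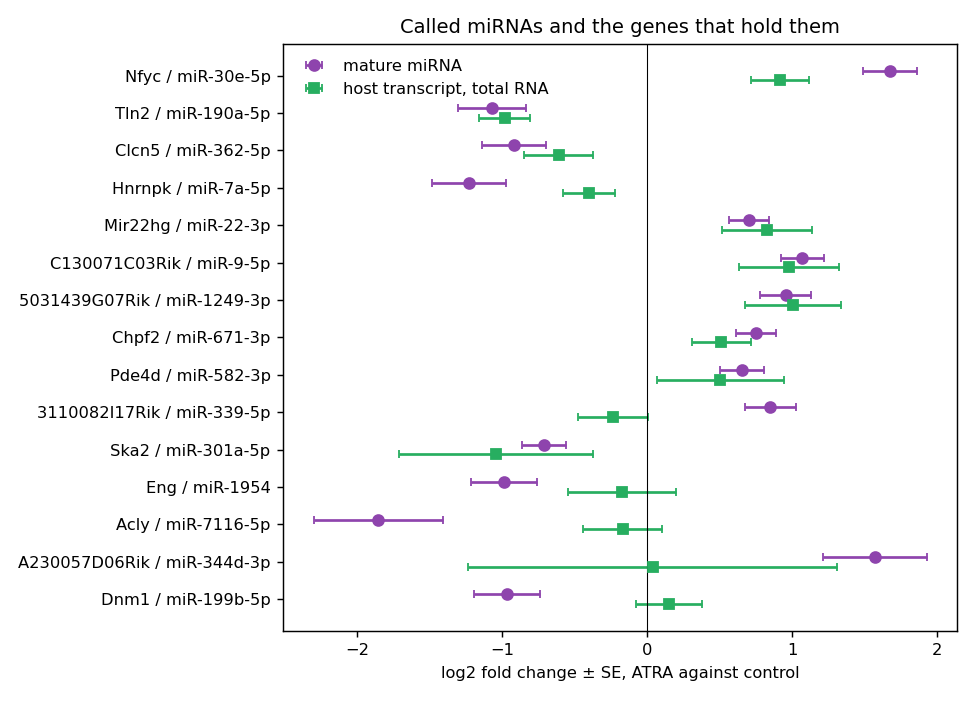
Log2 fold change ± SE of 15 host transcripts in total RNA (squares) and of a called miRNA chosen for each (circles), ATRA against control. Host and miRNA have the same sign in 13 of the 15 pairs, among them the hosts A230057D06Rik (0.04 ± 1.27), Eng (-0.17 ± 0.37) and Acly (-0.17 ± 0.27), which lie within their SE of 0. How often other hosts and miRNAs share a sign was not tested. 3110082I17Rik with miR-339-5p and Dnm1 with miR-199b-5p are the exceptions, and Dnm1 may not be the precursor of miR-199b. Of these hosts Tln2 passed the test without a block.

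Further hosts of called miRNAs, found through the annotation after the calls were known, were tested for 10 of 15 genes, and none passed with edgeR or DESeq2 (4 at an unadjusted p under 0.05). With the block 5 rose. They were Mir22hg, which holds miR-22 (0.83 ± 0.31, adjusted p = 0.25 and 0.017 with the block), C130071C03Rik with a miR-9 hairpin (0.98 ± 0.34, 0.23 and 0.036), 5031439G07Rik with miR-1249 (1.00 ± 0.33, 0.20 and 0.013), Chpf2 with miR-671 (0.51 ± 0.20, 0.28 and 0.022) and Pde4d with miR-582 (0.50 ± 0.44, 0.64 and 0.034). Acly, which holds miR-7116, was at -0.17 ± 0.27 and Eng, which holds miR-1954, at -0.17 ± 0.37. Dnm1, the listed host of miR-199b, was at 0.15 ± 0.23, while miR-199b-5p fell. The hairpin of miR-199b lies on the plus strand and the strand of Dnm1 is not given here, so Dnm1 may not be its precursor. The poorly measured A230057D06Rik, with a hairpin of miR-344d-3p, was at 0.04 ± 1.27.

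None of the 15 tested genes of miRNA production and turnover was called by edgeR, none of them at an unadjusted p under 0.05, and DESeq2 called none. Drosha was at 95.8, 103 and 114 CPM in control and at 107, 104 and 118 CPM with ATRA (0.08 ± 0.17), and Ago2, the slicing Argonaute, at -0.31 ± 0.21. Dicer1 was at 215, 217 and 146 CPM and at 152, 173 and 143 CPM, with overlapping groups (-0.31 ± 0.21). Zcchc11, which adds uridines to precursor miRNAs, passed with the block alone (-0.70 ± 0.34, adjusted p = 0.37 and 0.012).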

How the data were processed

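Total RNA and miRNA of B16 cells were sequenced in control, ATRA and PB-4 groups, with 3 libraries each. The authors deposited raw counts per mature miRNA and per gene, and these counts were used without change. The submitters' processing notes name BWA (version not given) for miRNA, HISAT2 2.0.4 for total RNA and GRCm38 as the build; the counter, the annotation and the use of strand were not given in the sources used here. Labels give skin as the source but B16 as the cell line. In total RNA, 27 rows had names turned into dates (0.214 to 0.260% of the counts) and were left out.

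Features with at least 10 counts over the 6 libraries were tested with the quasi-likelihood test of edgeR 4.0.16 (robust, TMM scaling, R 4.3.3) at a Benjamini-Hochberg adjusted p of 0.05; SE is the log2 fold change divided by the root of F. The comparison is unpaired. In total RNA same-numbered libraries correlated at 0.502 to 0.707, above the threshold of 0.1 used to accept a pairing; the labels do not state one, and since controls 1 and 2 also correlated with ATRA 2 and 1 (0.607 and 0.471), the data set replicate 3 apart and do not separate numbers 1 and 2. DESeq2 1.42.0, limma 3.58.1 and other scalings, filters and left-out libraries were alternatives. The fits were tested on simulated data. No libraries were duplicates. Named miRNAs are all those past the threshold, the 10 most abundant, up to 4 per list, the other strand and seed partners of those changed at least 2-fold, miR-344d-3-5p and those beside the threshold. miR-542-3p, miR-128-3p, miR-138-5p, miR-146a-5p, miR-192-5p, miR-215-5p, miR-196a-5p, miR-34c-3p, miR-429-3p, miR-200a-5p, miR-351-3p, miR-384-5p and the abundant markers of other cell types were chosen after their values were seen. The members and lists were chosen with earlier results of these data known. Each count's precision is limited by depth and covers counting error only where few counts are given.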

Additional observations from a re-analysis of the deposited data

How the results depend on the processing

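Over 15 alternative settings, the 41 called miRNAs gave 615 values, of which 501 stayed past the threshold, 114 no longer passed it and 0 changed direction. The count of called miRNAs was 41. It was 69 with library totals only, 90 with no filter on low counts and 80 with DESeq2, and 22 to 50 with a library left out (22 without control replicate 1, 27 without control replicate 2, ATRA replicate 2 or ATRA replicate 3). At 2-fold or more it was 23, against 44 with no filter, 35 with DESeq2 and 15 to 25 with a library left out. Summed by seed the count of 28 became 45 with library totals, 46 with no filter, 50 with DESeq2 and 10 to 26 with a library left out, and at 2-fold 15 became 23 with no filter and 24 with DESeq2 (9 to 16 with a library left out). With the replicate block, although same-numbered miRNA libraries correlated at -0.276 to -0.611 and so share only a number, 36 miRNAs and 16 seeds were called. Differently numbered miRNA libraries correlated at -0.234 to 0.741, highest for control replicate 2 with ATRA replicate 3. What these libraries share is not given by the labels and was not tested. Listed host and biogenesis genes went from 2 to 10 with the replicate block, 5 with DESeq2, 1 with RLE size factors or library totals, and 0 to 3 with a library left out. The cause of these shifts was not tested. miRNAs with fewer than 10 counts in all were not tested except in the fit with no filter.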
